A study of Mus musculus with 24 samples.

Results

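Piezo1, Piezo2, Yap1, Wwtr1, Ctgf, Cyr61, Ankrd1, Csrp3 and Xirp1 were followed across the muscle libraries as 9 genes of mechanical sensing and stretch response, chosen by their symbols out of 14159 measured genes. All 9 were present in the expression table. The values came from bulk RNA of whole quadriceps muscle in 24 libraries, with 3 libraries in each of 8 groups. The methods of the study call the samples independent and use 3 muscles a group, while the labels name no animals. P-values measure the spread between these libraries. The 2 strains were C57BL/6 (B6), the common laboratory strain, and MRL/MpJ (MRL), known for closing ear punch wounds. All animals were female and 6 to 8 weeks old at surgery per the methods of the study, and no group carried a transgene or an engineered deletion. Within each strain the groups were uninjured muscle, volumetric muscle loss with saline as the control injury, the same injury filled with decellularized pig small-intestine extracellular matrix (ECM), and the same injury filled with polyethylene powder (PE). The injury was the removal of a piece of quadriceps 3 mm by 3 mm in size, and injured muscle was collected on day 21. The labels give uninjured libraries no day. The comparisons asked how muscle that was injured, with or without an implant, differed between strains and from uninjured muscle of the same strain.

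PIEZO channels open when the plasma membrane is stretched and let calcium enter the cell. YAP (Yap1) and TAZ (Wwtr1) are transcriptional coactivators that the Hippo kinases hold in the cytoplasm, and when they reach the nucleus they act mainly through TEAD factors at target genes such as Ctgf and Cyr61. In muscle, Ankrd1, Csrp3 and Xirp1 encode proteins of the sarcomere and its anchoring sites that are known to respond to load, damage or overuse. Most regulation of PIEZO, YAP and TAZ acts on the protein, which RNA levels do not show.

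Promoter stretches are shown first for the 4 genes whose RefSeq promoter window holds the core TEAD motif GGAATG or its reverse complement CATTCC, because TEAD factors carry YAP and TAZ to DNA. Each window runs from 250 bases before to 50 bases after the start of transcription on the GRCm38.p6 build, and all 4 genes lie on the minus strand. Capitals mark the motif. The sequences are written 5′ to 3′ on the strand of the gene.
Yap1, chr9:8004707-8004762: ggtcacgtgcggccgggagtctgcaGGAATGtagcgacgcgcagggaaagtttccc
Wwtr1, chr3:57576016-57576071: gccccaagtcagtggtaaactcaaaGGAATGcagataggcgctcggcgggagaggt
Cyr61, chr3:145650058-145650113: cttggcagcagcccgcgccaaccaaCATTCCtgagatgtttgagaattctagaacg
Ankrd1, chr19:36119937-36120079: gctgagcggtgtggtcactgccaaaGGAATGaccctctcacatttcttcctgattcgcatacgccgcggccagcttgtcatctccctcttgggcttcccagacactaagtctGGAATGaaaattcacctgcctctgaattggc

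The Ankrd1 window held 2 matches and the other windows 1 each. The motif was found in 4 of the 6 genes with a window, in 6 of 13 other YAP/TAZ target genes and in 4481 of 27025 genes in all, which is 16.6%. The windows of Piezo1 and Csrp3 did not hold these letters. Ctgf, Xirp1 and Piezo2 had no window to search. A match describes the letters in these windows and was not tied to any expression value.

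On the GRCm39 build with the GENCODE annotation, Piezo1 lies at chr8:123208437-123278072, Piezo2 at chr18:63143284-63520260, Yap1 at chr9:7932000-8004661 and Wwtr1 at chr3:57363067-57483331. Ctgf, now named Ccn2, lies at chr10:24471333-24474900, and Cyr61, now named Ccn1, lies at chr3:145352720-145355738. Ankrd1 lies at chr19:36089352-36097506, Csrp3 at chr7:48480142-48497901 and Xirp1 at chr9:119842821-119852664. All 9 are protein-coding genes. Exons of Piezo1 overlap exons of Ctu2, a protein-coding gene on the other strand, and exons of Piezo2, Yap1, Ctgf, Cyr61 and Ankrd1 overlap long non-coding RNAs on the other strand. Whether the libraries kept strand is not given in the sources used here, so reads in those overlaps cannot be told apart.

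The libraries were muscle by their markers. The summed CPM (counts scaled to the library size) of 7 fast-fibre markers, among them the creatine kinase gene Ckm and the myosin gene Myh4, lay between 25683 and 164292. The mean effective library size was 25149682 reads, and at that size 3 counts correspond to 0.119 CPM. The PE library 2 of MRL mice stood apart, with a lowest within-group correlation of 0.812 across genes and a library weight of 0.0939. Its fast-fibre sum was 25683 CPM against 98218 and 100491 CPM in the other MRL PE libraries. Its sum over 6 macrophage markers was 4140 CPM against 188 and 200 CPM. The PE library 2 of B6 mice had the lowest fast-fibre sum of its group, 42969 CPM against 84565 and 93490 CPM, and the highest macrophage sum, 4987 CPM against 1354 and 2697 CPM. In bulk muscle, fewer cells of a type and less RNA per cell cannot be told apart.

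Per kilobase of the canonical transcript, the level in uninjured B6 muscle was highest for Csrp3 (55.6 ± 43.7 CPM per kb, SD, n = 3) and Xirp1 (37.0 ± 14.6 CPM per kb). Yap1 followed at 20.9 ± 0.904 CPM per kb, Cyr61 at 17.4 ± 0.571 CPM per kb and Wwtr1 at 10.4 ± 0.148 CPM per kb. Ctgf stood at 6.71 ± 2.63 CPM per kb and Piezo1 at 6.05 ± 2.29 CPM per kb. The lowest levels were those of Ankrd1 (0.616 ± 0.764 CPM per kb) and Piezo2 (0.218 ± 0.0942 CPM per kb). All levels that follow are log2 CPM and all differences are on the log2 CPM scale.

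The 9 genes were compared in 16 pairs of groups and in 3 tests of whether a response differed between the strains, which made 171 tests. With limma and Benjamini-Hochberg adjustment over all genes, 2 of the 171 passed an adjusted p of 0.05, and 16 had an unadjusted p under 0.05. Both that passed lay in PE minus uninjured muscle of B6 mice, where Piezo1 was higher and Xirp1 lower. In that comparison 24.8% of all genes were called, 14.7% as higher and 10.0% as lower, so 2 of 9 lay near the share of all genes. The median difference of the 9 genes there was -0.13, beside 0.02 over all genes.

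**Figure D1:**
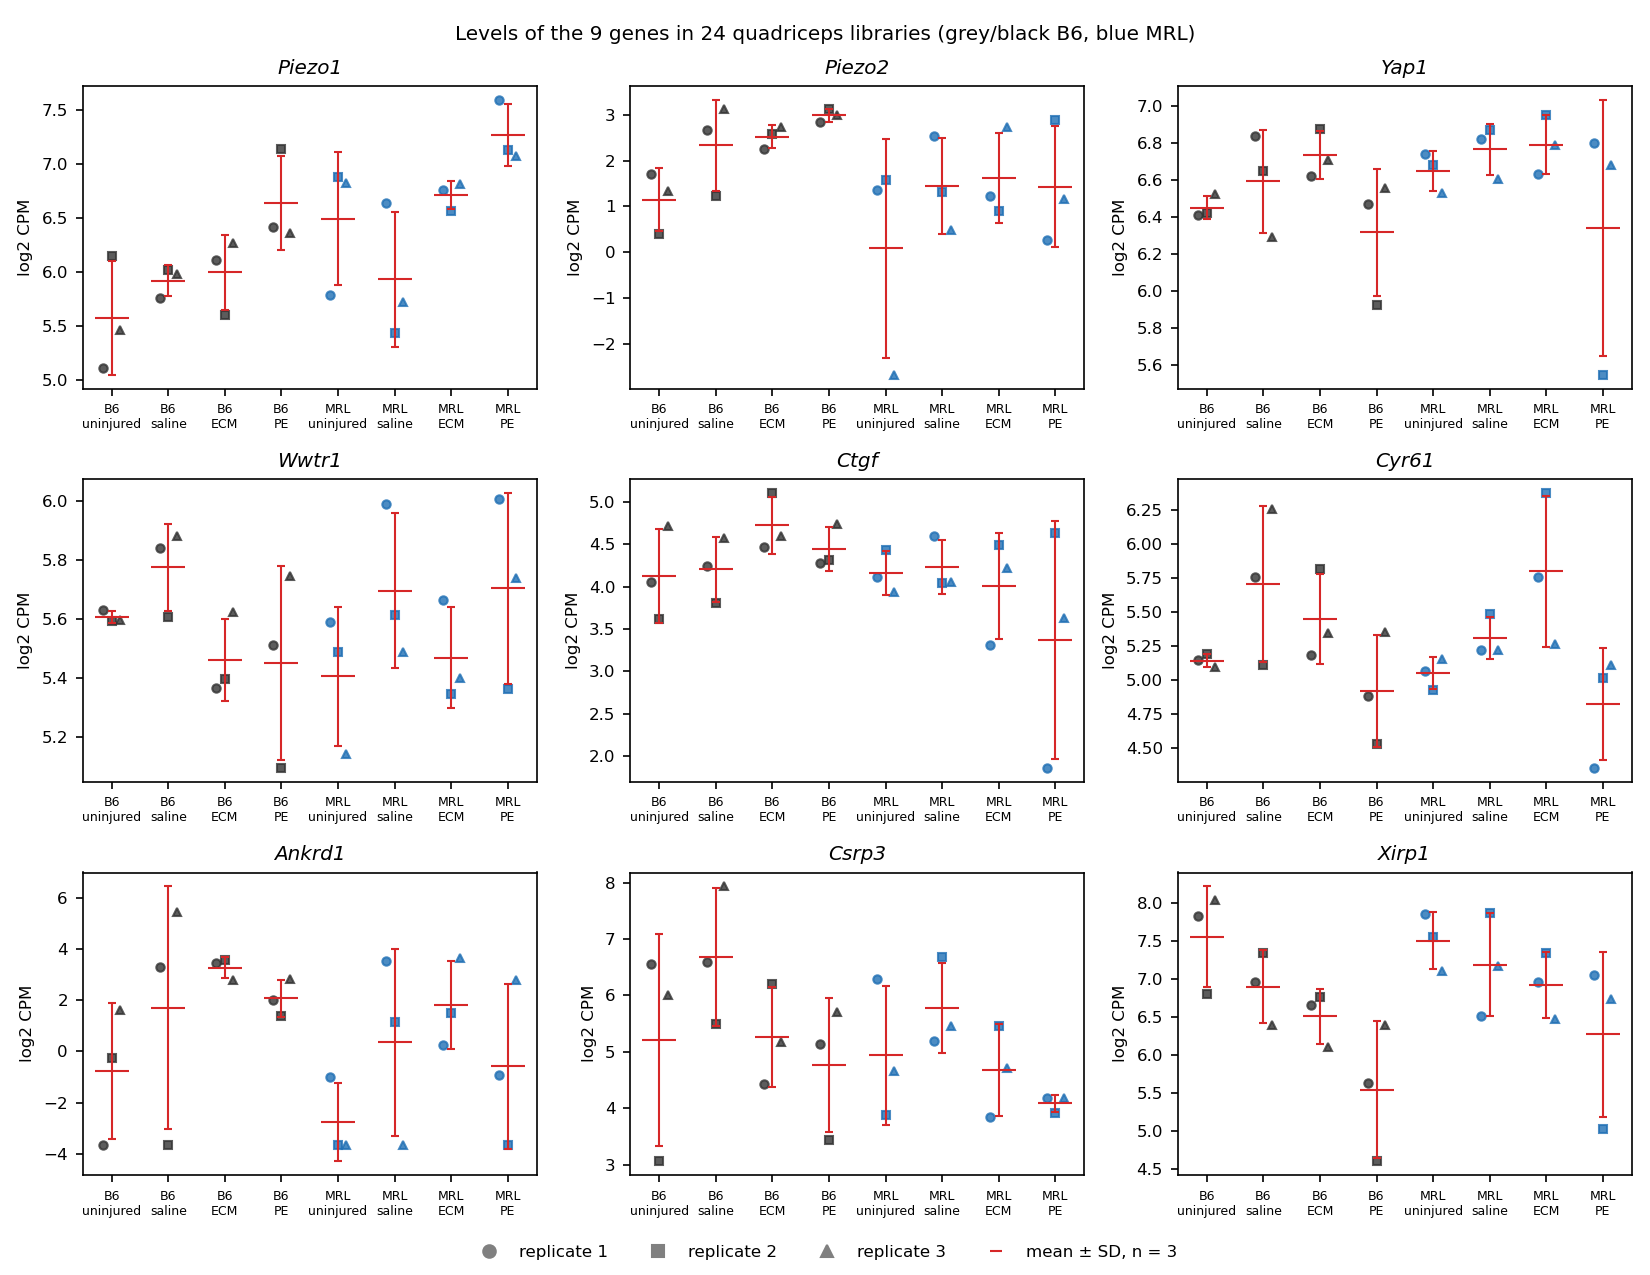
Levels of the 9 genes in log2 CPM (vertical axis, its own scale in each panel) in the 8 groups, with a point for each library shaped by replicate number, and a red bar for the group mean ± SD (n = 3). Piezo1 reached its highest value, 7.59, in an MRL PE library, and Ankrd1 sat at -3.65, a count of 0, in 6 of the 24 libraries.

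Piezo1, the stretch-gated channel of vessels, blood cells and many other tissues, had its highest group mean within each strain in PE-treated muscle. The uninjured B6 libraries held 5.11, 6.15 and 5.46, and the PE-treated B6 libraries held 6.42, 7.13 and 6.36. The lowest PE value lay above the highest uninjured value. Piezo1 rose by 1.06 (SE 0.33, 95% interval 0.37 to 1.76) in PE minus uninjured B6 muscle, with an adjusted p of 0.0282 from limma. The exact permutation test of 3 against 3 libraries gave 0.10, the smallest p it can give. Piezo1 was called with each left-out library except 3. The difference was 0.81 (adjusted p of 0.156) without B6 PE library 2, 0.83 (adjusted p of 0.119) without B6 uninjured library 1 and 1.01 (adjusted p of 0.0812) without B6 uninjured library 3.

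In saline-treated B6 muscle Piezo1 stood at 5.75, 6.02 and 5.98, and in ECM-treated B6 muscle at 6.11, 5.60 and 6.27. Both sets overlapped the uninjured libraries. All 3 PE-treated libraries lay above all saline-treated and all ECM-treated libraries of B6 mice. The difference between PE and saline was 0.72 (SE 0.33), with an adjusted p of 0.182 and 5.97% of all genes called. Without B6 PE library 2 it was 0.47 (adjusted p of 0.664).

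Uninjured MRL muscle held 5.78, 6.88 and 6.82, saline-treated MRL muscle 6.63, 5.43 and 5.72, ECM-treated MRL muscle 6.76, 6.57 and 6.81, and PE-treated MRL muscle 7.59, 7.13 and 7.07. The PE-treated libraries did not overlap any other MRL group. PE minus saline in MRL mice was the largest Piezo1 difference of any 2 groups within a strain, 1.34 (SE 0.33, 95% interval 0.64 to 2.03), with an unadjusted p of 0.00069 and an adjusted p of 0.097. No gene of the whole table was called in that comparison, although 3298 genes had an unadjusted p under 0.05. Piezo1 passed there without MRL saline library 1, at 1.69 and an adjusted p of 0.0307. PE minus uninjured in MRL mice was 0.77 (SE 0.33), with an adjusted p of 0.105 and 9.73% of all genes called. With 1 library left out at a time the difference ran from 0.42 without MRL uninjured library 1 (adjusted p of 0.4) to 0.96 without MRL uninjured library 2 (adjusted p of 0.0828), and it was 0.84 without MRL PE library 2 (adjusted p of 0.244).

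Between strains, Piezo1 was 0.92 higher in uninjured MRL muscle than in uninjured B6 muscle (SE 0.33, unadjusted p of 0.0118, adjusted p of 0.223), and the libraries overlapped. The 3 ECM-treated MRL libraries lay above the 3 ECM-treated B6 libraries, with a difference of 0.72 (SE 0.33) and an adjusted p of 0.351. In the 2 comparisons 2.60% and 2.66% of all genes were called. With PE the strain difference was 0.63 (SE 0.33, adjusted p of 0.312). After saline it was 0.01 (95% interval -0.68 to 0.70), so neither direction was shown. The response to saline injury, 0.35 in B6 and -0.57 in MRL, differed between strains by -0.91 (SE 0.47), with an adjusted p of 1, and no gene of the whole table was called in that test.

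Markers of several other cell types differed in the same groups. The sum over 6 of 7 listed macrophage markers was 117 to 147 CPM in uninjured B6 muscle and 1354 to 4987 CPM in PE-treated B6 muscle. In MRL mice it was 70.1 to 145 CPM in uninjured muscle, and 188, 4140 and 200 CPM with PE. Piezo1 was highest, at 7.59, in the MRL PE library with a macrophage sum of 188 CPM. Among B6 libraries Piezo1 was highest, at 7.13, in PE library 2, which had the highest macrophage sum of the 24 libraries, 4987 CPM. The sum over 6 fibroblast markers was 982 to 1390 CPM in uninjured B6 and 4304 to 7780 CPM in PE-treated B6 muscle, and 893 to 1444 CPM and 1542 to 13362 CPM in the same MRL groups. In PE minus uninjured muscle 6 of the 6 macrophage markers were called higher in B6 and 4 in MRL mice, and 4 and 2 of the 6 fibroblast markers. No marker of either list was at 0 in any library. All 5 markers of regenerating fibres were called higher in B6 mice, with sums of 15.4 to 27.5 CPM uninjured and 156 to 402 CPM with PE. None of them was called in MRL mice, with sums of 18.8 to 54.8 CPM and 23.0 to 89.0 CPM. In the same B6 comparison 4 of 5 endothelial markers were called lower, with sums of 352 to 415 CPM uninjured and 185 to 248 CPM with PE, as were 4 of 5 Schwann cell markers (36.1 to 434 and 25.3 to 34.0 CPM) and 2 of 6 adipocyte markers (883 to 3853 and 170 to 356 CPM). No marker of these 3 lists was called in MRL mice, where the endothelial sums were 225 to 351 CPM uninjured and 204 to 404 CPM with PE. All 6 adipocyte markers had higher means with PE in MRL mice, the opposite direction to B6, with sums of 227 to 2169 CPM uninjured and 405 to 4725 CPM with PE. The MRL PE library with Piezo1 at 7.59 also had the highest adipocyte sum of the 24 libraries, 4725 CPM. Within each group the library with the highest adipocyte sum also had the highest Piezo1, except in saline-treated B6 and ECM-treated MRL muscle. The part of these cells in the Piezo1 differences was not tested.

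**Figure D2:**
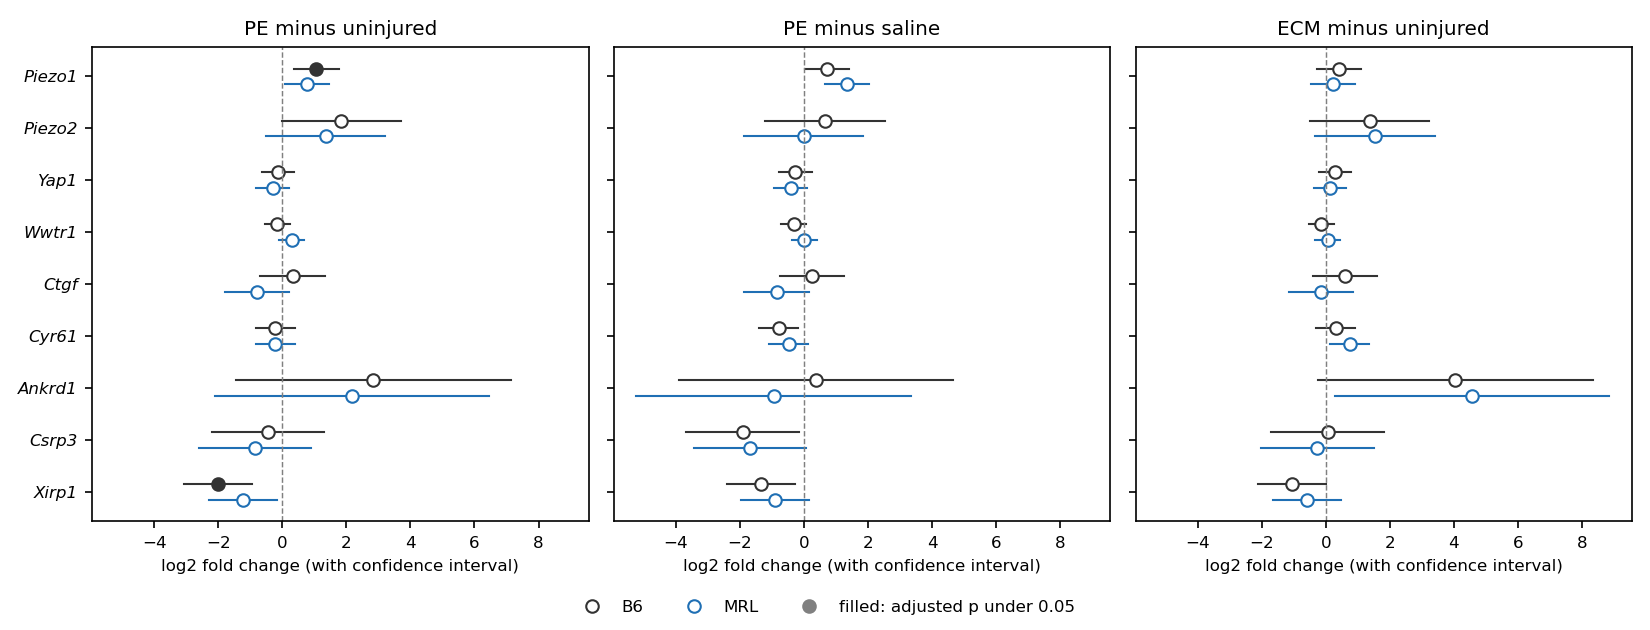
Differences of the 9 genes on the log2 CPM scale (horizontal axis) for PE minus uninjured, PE minus saline and ECM minus uninjured muscle, in B6 (black) and MRL (blue), with 95% intervals from limma. Filled points passed an adjusted p of 0.05, which only Piezo1 (1.06) and Xirp1 (-2.01) did, in PE minus uninjured B6 muscle.

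Piezo2, the channel of touch and proprioceptive neurons, was low in all 24 libraries, from -2.68 to 3.13. Its mean within-group SD was larger than that of 94.1% of genes. The uninjured B6 libraries held 1.71, 0.39 and 1.35, the saline-treated 2.67, 1.22 and 3.13, the ECM-treated 2.24, 2.59 and 2.73, and the PE-treated 2.84, 3.13 and 3.00. All ECM and PE libraries of B6 mice lay above all uninjured ones. PE minus uninjured was 1.84 (SE 0.89, adjusted p of 0.126). It passed, at an adjusted p of 0.0118, where the 2 compared groups alone set the spread. The MRL libraries held 1.35, 1.58 and -2.68 uninjured, 2.54, 1.32 and 0.48 with saline, 1.22, 0.91 and 2.75 with ECM, and 0.27, 2.88 and 1.16 with PE. The 4 MRL groups overlapped one another. PE minus uninjured in MRL mice was 1.35 (SE 0.89, adjusted p of 0.275) and 0.63 without MRL PE library 2. Without MRL uninjured library 3, which held -2.68, it was -0.03 (adjusted p of 0.981). Between strains PE-treated MRL muscle differed from PE-treated B6 muscle by -1.56 (SE 0.89, adjusted p of 0.358).

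Yap1 and Wwtr1, the coactivators themselves, were among the steadier genes. Their mean within-group SDs were 0.24 and 0.20 (log2 CPM), beside a median of 0.35 over all genes. Yap1 ranged from 5.55 to 6.95 and Wwtr1 from 5.10 to 6.01 over the 24 libraries. The lowest Yap1 values were those of the PE libraries numbered 2, 5.93 in B6 and 5.55 in MRL mice, which also had the lowest fast-fibre sums. The other PE libraries held 6.47 and 6.56 in B6 and 6.80 and 6.68 in MRL mice, within or above the range of uninjured muscle of their strain. PE minus uninjured was -0.13 (SE 0.24) for Yap1 in B6 and -0.31 (SE 0.24) in MRL mice, with adjusted p-values of 0.701 and 0.361. Both signs reversed without the library named, to 0.06 and 0.09. Scaled to equal totals, the values were 0.28 and 0.10, where the median of all genes was 0.426 and 0.467, so Yap1 stayed below the median.

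Wwtr1 stood at 5.63, 5.59 and 5.60 in uninjured B6 muscle and at 5.59, 5.49 and 5.14 in uninjured MRL muscle. These 2 sets did not overlap, and neither did those of Yap1, at 6.41, 6.42 and 6.52 in B6 and 6.74, 6.68 and 6.53 in MRL. That made 2 of 9 genes without overlap between uninjured strains, beside 21.8% of all genes. PE-treated Wwtr1 was 5.51, 5.10 and 5.75 in B6 and 6.01, 5.36 and 5.74 in MRL mice. The differences from uninjured muscle were -0.16 (SE 0.19, 95% interval -0.55 to 0.24, adjusted p of 0.544) and 0.30 (SE 0.19, 95% interval -0.09 to 0.69, adjusted p of 0.251). The B6 sign reversed without B6 PE library 2, to 0.02.

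Ctgf and Cyr61 encode secreted CCN proteins of the matrix and are the most used readouts of YAP/TAZ activity. Neither passed in any comparison. Ctgf in B6 mice held 4.05, 3.62 and 4.72 uninjured, 4.24, 3.81 and 4.58 with saline, 4.47, 5.11 and 4.60 with ECM, and 4.28, 4.32 and 4.75 with PE. In MRL mice it held 4.12, 4.44 and 3.93 uninjured, 4.61, 4.04 and 4.06 with saline, 3.31, 4.50 and 4.22 with ECM, and 1.86, 4.64 and 3.64 with PE. The spread of the MRL PE group, 1.41 (SD), was the largest of the 8 groups. All neighbouring groups in the order of means overlapped.

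PE-treated MRL muscle differed from PE-treated B6 muscle in Ctgf by -1.07 (SE 0.48, unadjusted p of 0.0374, adjusted p of 0.231), with 3.35% of all genes called. This difference rested on single MRL PE libraries. Without library 1, which held 1.86, it was -0.31 (adjusted p of 0.873), and without library 2 it was -1.70 (adjusted p of 0.00797). Xirp1 differed there by 0.73 (adjusted p of 0.462). It ran from 0.26 without B6 PE library 2 (adjusted p of 0.876) and 0.34 without MRL PE library 1 (adjusted p of 0.913) to 1.35 without MRL PE library 2 (adjusted p of 0.0456). Whether the change from saline to PE differed between strains gave -1.10 for Ctgf (SE 0.68, adjusted p of 0.988), and -0.34 without MRL PE library 1. PE minus uninjured was 0.32 in B6 (SE 0.48, adjusted p of 0.636) and -0.79 in MRL mice (SE 0.48, adjusted p of 0.236), where it was -0.03 without MRL PE library 1 and -1.42 without MRL PE library 2. Adipocyte markers differed between the strains with PE. All 6 had higher means in MRL mice, with a median difference of 3.34, all 6 had an unadjusted p under 0.05 and 1 was called. Their sums were 170, 356 and 316 CPM in B6, and 4725, 405 and 3027 CPM in the MRL libraries with Ctgf at 1.86, 4.64 and 3.64. None was at 0 in any library, and the part of adipocytes in the Ctgf values was not tested.

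Cyr61 varied little in uninjured muscle, at 5.15, 5.19 and 5.09 in B6 and 5.07, 4.93 and 5.16 in MRL mice. After saline it stood at 5.76, 5.11 and 6.26 in B6 and at 5.22, 5.48 and 5.22 in MRL mice. With ECM it stood at 5.18, 5.82 and 5.35 in B6 and at 5.76, 6.38 and 5.26 in MRL mice. All saline and ECM libraries of MRL mice lay above all uninjured ones. The PE groups had the lowest means of the 8, at 4.88, 4.53 and 5.35 in B6 and at 4.35, 5.02 and 5.11 in MRL mice.

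The PE-treated MRL libraries lay below all ECM-treated and all saline-treated MRL libraries. PE minus ECM in MRL mice was -0.97 (SE 0.29, unadjusted p of 0.00346, adjusted p of 0.0678), in a comparison where no gene of the table was called and 4022 genes had an unadjusted p under 0.05. It passed without MRL PE library 3, at -1.12 and an adjusted p of 0.0372. PE minus saline in B6 mice was -0.79 (SE 0.29, adjusted p of 0.105), and -0.51 without B6 saline library 3. ECM minus uninjured in MRL mice was 0.75 (SE 0.29), with an unadjusted p of 0.019 and an adjusted p of 1, and 0.46 without MRL ECM library 2. PE minus uninjured was -0.22 (adjusted p of 0.58) in B6 and -0.23 (adjusted p of 0.587) in MRL mice, each with SE 0.29.

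Ankrd1, an ankyrin-repeat protein of the sarcomere and nucleus and a YAP/TAZ target, was the most variable of the 9 genes. Its mean within-group SD was 2.34, above that of 99.9% of genes. A count of 0, which is -3.65 on this scale, was found in 6 libraries: B6 uninjured 1, B6 saline 2, MRL uninjured 2 and 3, MRL saline 3 and MRL PE 2. A count of 0 allows up to 0.119 CPM. The highest value, 5.45, came from B6 saline library 3. The other saline-treated B6 libraries held 3.32 and -3.65.

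Ankrd1 was above 0 counts in every ECM-treated library, at 3.46, 3.58 and 2.81 in B6 and 0.25, 1.51 and 3.66 in MRL mice. Those libraries did not overlap with uninjured muscle of their strain, which held -3.65, -0.24 and 1.61 in B6 and -0.99, -3.65 and -3.65 in MRL mice. The fitted difference was 4.04 (SE 2.05, adjusted p of 0.317) in B6 and 4.57 (SE 2.05, unadjusted p of 0.038, adjusted p of 1) in MRL mice. Fitted differences of Ankrd1 depend on the prior count of the scale. With PE the libraries held 2.00, 1.39 and 2.84 in B6 and -0.92, -3.65 and 2.80 in MRL mice, and the differences from uninjured muscle were 2.84 (SE 2.05, adjusted p of 0.3) and 2.18 (SE 2.05, adjusted p of 0.447). Saline minus uninjured was 2.47 (adjusted p of 0.613) in B6 and 3.12 (adjusted p of 1) in MRL mice.

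In ECM minus uninjured B6 muscle, 4 of the 9 genes did not overlap between groups, namely Piezo2, Yap1, Ankrd1 and Xirp1, beside 32.3% of all genes, and 0.424% of all genes were called. In the same comparison of MRL mice 2 of 9 did not overlap, Cyr61 and Ankrd1, beside 13.1% of all genes, and 0.0141% were called.

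Markers of regenerating fibres also differed between these libraries. The sum over 5 such markers, which include the embryonic and neonatal myosins Myh3 and Myh8, was 994 and 1090 CPM in the saline-treated B6 libraries with Ankrd1 at 3.32 and 5.45, and 27.0 CPM in the one at 0 counts. It was 146 to 406 CPM in ECM-treated B6 muscle and 15.4 to 27.5 CPM in uninjured B6 muscle. In MRL mice it was 57.9 to 290 CPM with ECM and 18.8 to 54.8 CPM uninjured. The saline-treated MRL libraries had 291, 87.1 and 47.7 CPM, with Ankrd1 at 3.55, 1.17 and -3.65. With PE the sums were 372, 156 and 402 CPM in B6 mice, with Ankrd1 at 2.00, 1.39 and 2.84. In PE-treated MRL muscle they were 23.0, 56.1 and 89.0 CPM, with Ankrd1 at -0.92, -3.65 and 2.80. The part of regenerating fibres in the Ankrd1 values was not tested.

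**Figure D3:**
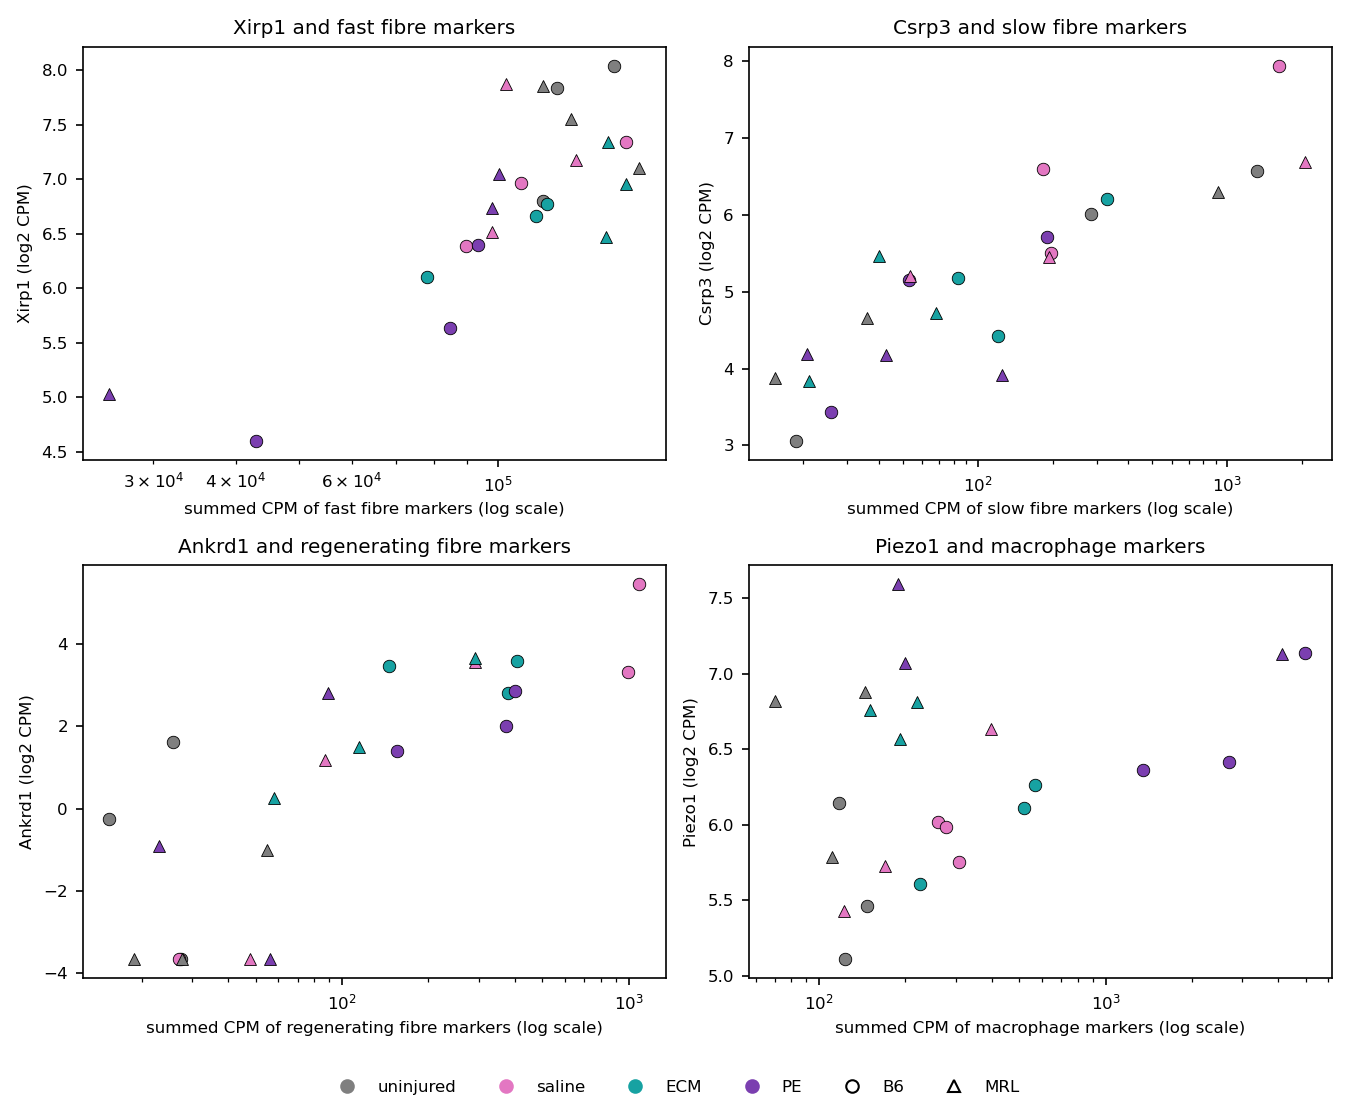
Levels of 4 of the genes in log2 CPM (vertical axes) against the summed CPM of a marker list on a log scale (horizontal axes), with a point for each of the 24 libraries, circles for B6, triangles for MRL and colours for treatment. Xirp1 was lowest in the 2 libraries with fast-fibre sums of 25683 and 42969 CPM, and Ankrd1 was above 3 in no library with a regenerating-fibre sum under 146 CPM.

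Csrp3, the muscle LIM protein of the Z-disc, ranged from 3.06 to 7.94, and its mean within-group SD was above that of 95.0% of genes. The uninjured B6 libraries alone held 6.56, 3.06 and 6.01. The saline-treated B6 libraries held 6.60, 5.50 and 7.94, the ECM-treated 4.43, 6.20 and 5.18, and the PE-treated 5.15, 3.43 and 5.71. In MRL mice the values were 6.29, 3.88 and 4.66 uninjured, 5.20, 6.68 and 5.46 with saline, 3.84, 5.47 and 4.72 with ECM, and 4.18, 3.92 and 4.17 with PE. All PE-treated MRL libraries lay below all saline-treated MRL libraries.

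PE minus saline was -1.92 (SE 0.84, adjusted p of 0.164) for Csrp3 in B6 and -1.69 (SE 0.84, adjusted p of 0.229) in MRL mice. PE minus uninjured was -0.45 (adjusted p of 0.709) and -0.85 (adjusted p of 0.47), and saline minus uninjured in B6 mice was 1.47 (adjusted p of 0.478), each with SE 0.84. The sum over 6 slow-fibre markers, among them the slow myosin gene Myh7, was 18.7 CPM in the uninjured B6 library with Csrp3 at 3.06, and 1310 and 284 CPM in the other uninjured B6 libraries. It was 1613 CPM in the saline-treated B6 library with Csrp3 at 7.94, but 183 CPM in the one with Csrp3 at 6.60. Among the PE-treated MRL libraries the highest sum, 125 CPM, came with the lowest Csrp3, 3.92. Over all libraries the slow-fibre sum ranged from 15.4 to 2056 CPM, and the part of slow fibres in the Csrp3 values was not tested.

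Xirp1 encodes an actin-binding repeat protein of myotendinous junctions and damaged sarcomeres, and its lowest group mean within each strain was that with PE. The uninjured B6 libraries held 7.83, 6.80 and 8.04 and the PE-treated B6 libraries 5.63, 4.60 and 6.40, without overlap. Xirp1 fell by 2.01 (SE 0.51, 95% interval -3.08 to -0.95), with an adjusted p of 0.0114 from limma and an exact permutation p of 0.10, the smallest that 3 against 3 libraries allow. The call was lost without B6 PE library 2, where the difference was -1.54 with an adjusted p of 0.0897. With Piezo1 and Piezo2, Xirp1 was among 3 of 9 genes without overlap in this comparison, beside 51.1% of all genes.

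The saline-treated B6 libraries held 6.96, 7.34 and 6.39, and the ECM-treated B6 libraries 6.66, 6.77 and 6.10. All ECM libraries lay below all uninjured ones, and the difference was -1.05 (SE 0.51, adjusted p of 0.303). PE minus saline in B6 mice was -1.35 (SE 0.51, adjusted p of 0.108), with -0.88 (adjusted p of 0.552) without B6 PE library 2 and -1.78 (adjusted p of 0.0466) without B6 PE library 3. In MRL mice the values were 7.85, 7.55 and 7.11 uninjured, 6.52, 7.87 and 7.17 with saline, 6.96, 7.34 and 6.47 with ECM, and 7.05, 5.03 and 6.74 with PE. PE minus uninjured was -1.23 (SE 0.51, adjusted p of 0.0943), and -0.61 (adjusted p of 0.471) without MRL PE library 2 and -1.62 (adjusted p of 0.0443) without MRL PE library 1. PE minus saline was -0.91 (SE 0.51, adjusted p of 0.272), and -0.29 without MRL PE library 2.

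Fast-fibre markers were lower in the same groups. The sum over 7 markers was 117066 to 150519 CPM in uninjured B6 muscle and 42969 to 93490 CPM with PE, and in MRL mice 117092 to 164292 CPM and 25683 to 100491 CPM. None of the 7 was at 0 in any library. Expressed as a ratio to the fast-fibre sum (log2 ppm of that sum), Xirp1 was 10.5 ± 0.534 in uninjured and 9.38 ± 0.379 in PE-treated B6 muscle (SD, n = 3), a difference of -1.13 with an exact permutation p of 0.10. In MRL mice the same quantity was 10.4 ± 0.625 and 10.3 ± 0.149, a difference of -0.13 with an exact permutation p of 0.80. Whether the change of this ratio differed between strains was not tested, and neither was the part of fast fibres in the Xirp1 differences.

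None of the 9 genes passed in any other comparison of 2 groups. Those comparisons called 2.51% of all genes between saline-treated strains, 0.226% in PE minus ECM of B6 mice, 0.0283% and 0.00706% in ECM minus saline of B6 and MRL mice, and none in saline minus uninjured of either strain, where 1751 genes in B6 and 439 in MRL mice had an unadjusted p under 0.05. Piezo1 in ECM minus saline of MRL mice was 0.78 (SE 0.33, unadjusted p of 0.0285, adjusted p of 1). In PE minus ECM of B6 mice 3 of 9 genes did not overlap (Piezo1, Piezo2 and Yap1), beside 34.1% of all genes. In PE minus saline of MRL mice 3 of 9 did not overlap (Piezo1, Cyr61 and Csrp3), beside 20.2%. The count was 2 in PE minus uninjured MRL muscle (Piezo1 and Xirp1, beside 38.8%) and in PE minus ECM of MRL mice (Piezo1 and Cyr61, beside 29.8%). It was 1 in PE minus saline of B6 mice (Piezo1, beside 29.7%), saline minus uninjured of MRL mice (Cyr61, beside 13.0%) and MRL minus B6 with ECM (Piezo1, beside 25.8%). The other 2 tests of a strain difference in response, for ECM minus saline and PE minus saline, called no gene of the table, while 320 and 614 genes had an unadjusted p under 0.05. Comparisons with the same reference group share its 3 libraries.

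The wider pathway was read from fixed lists in PE minus uninjured muscle, the comparison with the most genes called in each strain. All list counts there stand beside 14.7% of all genes called higher and 10.0% called lower in B6 mice, and 5.95% and 3.78% in MRL mice. Of 13 measured genes for other mechanosensitive channels, Trpv2 rose in B6 mice by 3.63 (SE 0.79, adjusted p of 0.00598), from 1.33 ± 0.24 to 4.96 ± 0.81. It was also higher in PE minus saline, by 3.10 (adjusted p of 0.0301). All 6 macrophage markers had higher means in these 2 B6 comparisons too, with medians of 3.62 and 2.91. Their part in the Trpv2 values was not tested. In MRL mice Trpv4, a calcium channel opened by swelling and heat, rose by 1.56 (adjusted p of 0.0448) and Tmc7 fell by 1.25 (adjusted p of 0.0484). The median of the 13 was -0.32 in B6 and 0.08 in MRL mice. Over all genes it was 0.02 and 0.07.

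Among 23 Hippo kinases and scaffolds, Taok3, an upstream kinase, rose by 1.63 (adjusted p of 0.0179) and Nf2, the scaffold merlin, fell by 0.74 (adjusted p of 0.0485) in B6 mice. In MRL mice 3 of the 23 rose, namely the cadherin Fat1 by 1.37 (adjusted p of 0.0463), the kinase adaptor Mob1a by 1.32 (adjusted p of 0.0448) and the kinase Map4k4 by 1.15 (adjusted p of 0.0448). Of 7 TEAD and VGLL factors, the DNA-binding partner Tead1 fell by 1.42 in B6 (adjusted p of 0.0193) and fell by 1.30 in MRL mice (adjusted p of 0.0491). The muscle cofactor Vgll2 fell by 2.31 in B6 mice (adjusted p of 0.0106). All 7 fast-fibre markers had lower means in both strains too, with medians of -0.79 and -1.15. Their part in the Tead1 and Vgll2 values was not tested.

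Of 19 measured YAP/TAZ target genes beyond the 9, 6 rose and none fell in PE minus uninjured B6 muscle. They were the kinase Nuak2 by 2.27 (adjusted p of 0.0182), the stress gene Gadd45a by 2.24 (adjusted p of 0.0236), Fjx1 by 1.73, the IGF-binding protein Igfbp3 by 1.30, the RNA-binding protein Rbms3 by 1.15 and the Arf regulator Asap1 by 0.96, the last 4 at adjusted p-values of 0.0176 to 0.0328. The list's median was 0.32 beside 0.02 over all genes. In MRL mice 3 rose, Ccdc80 by 2.29, Dock5 by 2.11 and Asap1 by 0.92, and the median was 0.69 beside 0.07. All 6 fibroblast markers also had higher means with PE in both strains, with 4 called in B6 and 2 in MRL mice. Their part in the list's values was not tested.

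Of 24 measured Z-disc and muscle stress genes, 20 in B6 and 23 in MRL mice had lower means with PE, beside 49.0% and 45.7% of all genes, and 4 and 3 passed as lower. In B6 mice Myot (myotilin) fell by 1.81, Nrap by 1.80, Ankrd23, a relative of Ankrd1, by 1.71 and Pdlim5 by 1.28. Fhl2, a LIM-domain cofactor, rose by 2.65 (adjusted p of 0.0418). In MRL mice Ankrd23 fell by 1.78, Tcap (titin cap) by 1.61 and the ubiquitin ligase Trim63 by 1.33. The list medians were -0.94 and -1.05. All 7 fast-fibre markers also had lower means with PE in both strains, with medians of -0.79 and -1.15 and none called, and their part in the list's values was not tested.

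Among 11 genes of the MRTF-SRF axis, which reads actin assembly, Filip1l was higher in MRL than in B6 muscle by 1.87 uninjured (adjusted p of 2.3e-05), by 1.31 after saline (adjusted p of 0.00159) and by 1.27 with ECM (adjusted p of 0.00231). It was the one gene of the 6 lists called between strains in each of these 3 comparisons. With PE it fell by 1.16 in MRL mice (adjusted p of 0.0448), and Cnn2, a calponin, rose by 1.56 in B6 mice (adjusted p of 0.0399).

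These list counts rested on single libraries. Without B6 PE library 2 the genes called in PE minus uninjured B6 muscle went from 3508 to 533 over the whole table, and Trpv2 was the one gene of the 6 lists still called. The call of Nf2 in B6 mice was lost in all 6 fits with 1 library left out. Those of Fhl2 and Cnn2 were lost in at least 5 of the 6. Without MRL PE library 2 the count in MRL mice went from 1377 to 1, and no gene of the 6 lists was called. Without MRL uninjured library 1 or 3 it was 0. Without MRL PE library 1 or 3 it was 2874 or 3427.

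**Figure D4:**
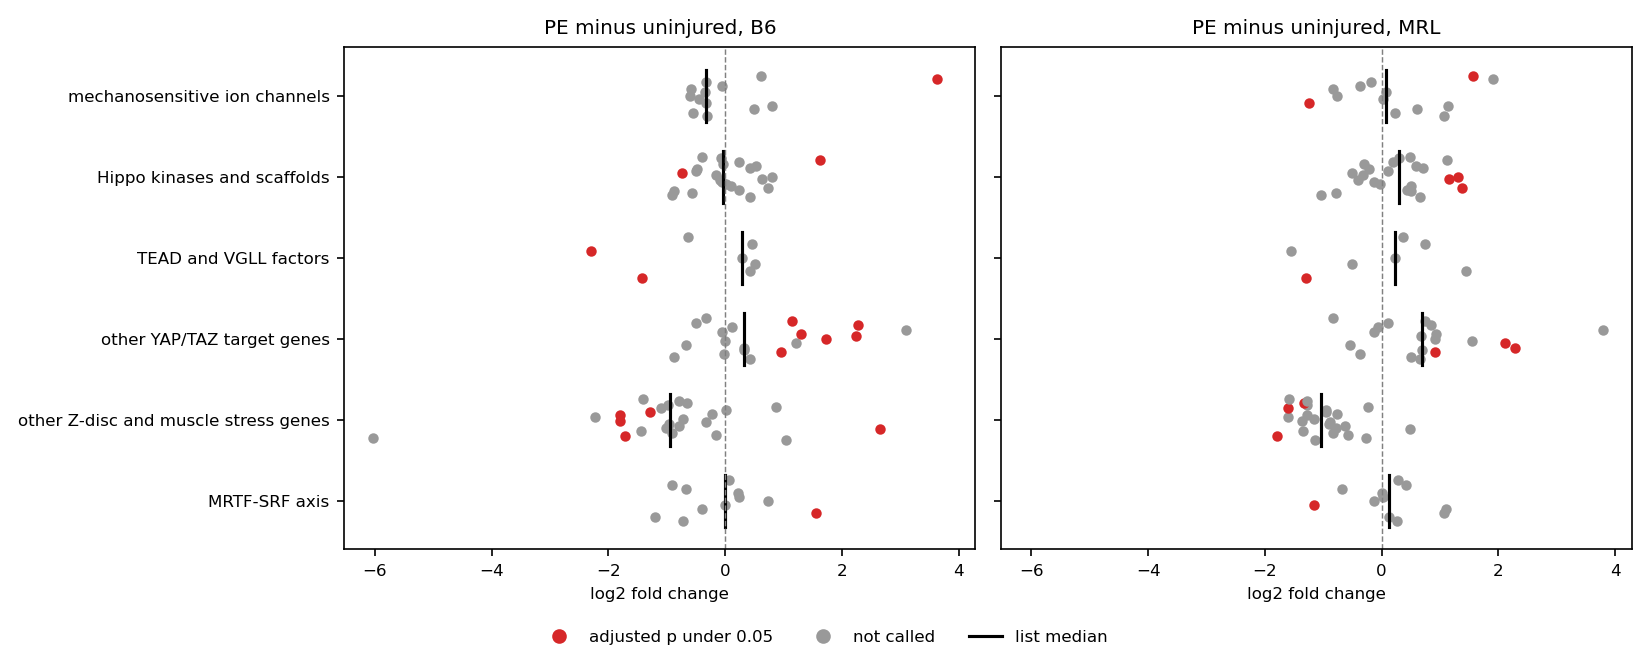
Differences on the log2 CPM scale (horizontal axis) in PE minus uninjured muscle for the genes of 6 fixed lists, in B6 (left) and MRL mice (right), with a point per gene, red where the adjusted p was under 0.05, and a black line at each list's median. The Z-disc and muscle stress genes have medians of -0.94 and -1.05, and the YAP/TAZ targets 0.32 and 0.69.

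Over the 24 libraries, which share groups and differ in fibre and cell content, the profiles of the 9 genes were compared with those of 11233 genes by Pearson's r, as a description. Closest to Piezo1 were Unc119 (0.889), Htra1 (0.824) and Mgat4b (0.818). Closest to Xirp1 were Myot (0.964), Coq3 (0.955) and Mrpl16 (0.951), and closest to Csrp3 were Lmod2 (0.907), Myom3 (0.906) and Casq2 (0.904). Ankrd1 lay nearest to Aif1l (0.842), Sln (0.841) and Cdkn1a (0.84), Ctgf to Thbs4 (0.852), and Cyr61 to Jup (0.773). Piezo2 lay nearest to Nbl1 (0.875), Yap1 to Glt28d2 (0.9) and Wwtr1 to Ablim1 (0.836). Among the 9 genes themselves, r was highest for Yap1 with Xirp1 (0.639) and lowest for Piezo1 with Csrp3 (-0.721). Ctgf and Cyr61, both targets of YAP and TAZ, had an r of 0.411. Yap1 had an r of 0.31 with Cyr61 and -0.149 with Ctgf.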

How the data were processed

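Quadriceps RNA of C57BL/6 and MRL/MpJ mice was sequenced from polyA-selected libraries with ERCC spike-ins. The authors quantified reads with kallisto on the Ensembl GRCm39 cDNA, summed transcripts to genes with tximport (lengthScaledTPM), kept genes above 1 CPM in at least 3 samples, scaled libraries with the TMM method of edgeR and deposited log2 CPM values with a prior count of 2. The lowest deposited log2 CPM value, -3.65, is a count of 0, and the CPM of the prior is 0.0795. The 9 genes and all lists were chosen with earlier results of these data known. Of 14160 rows, 1 had no symbol and was left out.

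Groups were taken from the labels and compared with limma 3.58.1 in R 4.3.3, with a coefficient per group over all 24 libraries, an intensity trend, 2-sided tests and Benjamini-Hochberg adjustment over 14159 genes at 0.05. No count model was used, since the values are normalized. The code was tested on simulated data. Named pathway genes were, per comparison, list and direction, those called with the largest differences, at most 4. Rbms3 and Asap1 in B6 mice fall outside this rule and were named after their values were seen. Single values also had exact permutation tests. Pearson's r was computed over genes whose mean log2 CPM was at least 1. Alternatives were log2(CPM + 1), a filter at a mean log2 CPM of 1 (11617 genes), equal library totals, quantile normalization, library weights (gene-by-gene method, since the default did not converge), the compared groups alone, the replicate number as a block, and each library left out. Numbers paired the samples in no labelled sense. The residuals of same-numbered libraries correlated above 0.1 in all 3 pairs only between strains with PE (0.105, 0.532 and 0.439). There the block called 0 of the 9 genes, as the fit without it did. With 3 libraries a group, every difference carries a wide interval. Reads per sample are listed in the supplement of the study and were not used here, and the mean effective library size recovered from the deposited values sets the limit near 0 counts.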

Additional observations from a re-analysis of the deposited data

How the results depend on the processing

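The count of called genes among the 9 kept its value or stayed within 1.5 times under log2(CPM + 1), the filter on low values (which removed Ankrd1), quantile normalization and the compared groups alone, though the last, and the replicate block, called 3 in PE minus uninjured B6 muscle by adding Piezo2. Library weights, which gave MRL PE library 2 a weight of 0.0939 and B6 PE library 1 a weight of 5.93, called 1 gene in MRL minus B6 uninjured (Piezo1), 5 in MRL minus B6 with PE (Piezo1, Piezo2, Wwtr1, Ctgf, Xirp1), 1 in ECM minus uninjured (Xirp1), 2 in PE minus saline (Cyr61, Xirp1) and 1 in PE minus ECM of B6 mice (Xirp1), and in MRL mice 3 in PE minus uninjured (Piezo1, Wwtr1, Ctgf), 2 in PE minus saline (Piezo1, Ctgf) and 1 in PE minus ECM (Cyr61). Equal totals, which moved the median of all genes by 0.406 in B6 and 0.395 in MRL mice in PE minus uninjured, called 2 there in MRL mice (Piezo1, Wwtr1) and turned Yap1 to 0.28 and 0.10, Cyr61 to 0.19 and 0.18, and Wwtr1 in B6 mice to 0.26. Relative to that shift all 5 stayed negative. The strain difference of Piezo1 after saline was -0.10 with equal totals, where the median of all genes moved by -0.108, -0.045 with quantile normalization (median moved by -0.026) and -0.104 with weights (by -0.032), and Yap1 in PE minus uninjured MRL muscle turned to 0.055 with weights. The replicate block called 1 gene, Csrp3, in PE minus saline B6 muscle (adjusted p of 0.025), where the numbers mark no pairing. It called 3 against 2 in PE minus uninjured B6 muscle, and changed no other call among the 9.

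When 1 library at a time was left out, the count ran from 0 to 2 in PE minus uninjured B6 muscle and in MRL minus B6 with PE, from 0 to 1 in PE minus saline of both strains, PE minus uninjured MRL and PE minus ECM MRL, and was 0 in the other comparisons. Signs turned within ranges of -0.342 to 0.259 (Piezo1, MRL minus B6 after saline), and in PE minus uninjured of -0.25 to 0.064 (Yap1, B6), -0.535 to 0.09 (Yap1, MRL), -0.303 to 0.022 (Wwtr1, B6), -0.367 to 0.011 (Cyr61, MRL), -1.523 to 0.23 (Csrp3, B6) and -0.032 to 2.097 (Piezo2, MRL). In PE minus uninjured MRL muscle the whole table had 1377 genes called, but 0 with the compared groups alone, with the block or with quantile normalization, and 1131 to 2343 under the other settings. In B6 mice it had 3058 to 7755. The list counts moved with them. In B6 mice the lower Z-disc genes ran from 2 (quantile normalization) to 16 (weights) and the higher YAP/TAZ targets from 5 to 8. The causes were not tested. Values near the floor of the scale limit Ankrd1, at 0 counts in 6 libraries, and Piezo2 in MRL uninjured library 3, at -2.68 log2 CPM.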
